A study of Homo sapiens with 24 samples.

Results

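The enzymes of nucleotide synthesis were examined in HCT-116 colorectal cancer cells: TYMS, RRM1, RRM2, TK1, CAD, UMPS, IMPDH2, PPAT and PAICS. Members were all non-control probes that the array's design names after one of these 9 genes, which gave 10 probes of the 34127 non-control probes on the array, for 9 of the 15163 genes tested. PPAT had 2 probes, and the brighter one leads its description. All 10 were well above background on 24 of 24 arrays, so every member entered the test, as did 18984 probes in all. The study asked which genes respond to butyrate, a short-chain fatty acid made by fermentation of fiber in the colon and an inhibitor of histone deacetylases, and how blocking Wnt signaling alters the response. All cells came from 1 stably transfected HCT-116 clone that carries the Tet repressor and a doxycycline-inducible, FLAG-tagged DN-Tcf4, a form of Tcf4 that competes with beta-catenin-bound Tcf for DNA and so dampens Wnt-driven transcription. Cells were mock-treated (Ctl), given 4 µg/ml doxycycline (Doxy), given 5 mM sodium butyrate (NaB) or given both agents (DoxyNaB), for 17.5 hr. Each of 6 experiments supplied 1 array per treatment. By the study's account DN-Tcf4 protein is scarce with doxycycline alone and abundant when butyrate is also present, so its amount differs between the Doxy and the DoxyNaB arrays. As a single clone was used, the experiments measure the spread of repeated cultures and not the spread among clones.

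Dividing cells need a balanced supply of nucleotides for RNA and DNA. De novo pyrimidine synthesis starts with the multifunctional protein CAD and ends with UMPS, which makes UMP, whereas de novo purine synthesis is committed by PPAT, continues through PAICS and divides at IMP, where IMPDH2 opens the branch to guanine nucleotides. Ribonucleotide reductase, made of the large subunit RRM1 and the small subunit RRM2, turns ribonucleotides into deoxyribonucleotides, TYMS methylates dUMP to dTMP, and TK1 salvages thymidine to the same product. Transcripts of several of these enzymes are known to rise as cells enter S phase.

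Promoters are shown for the genes whose transcripts fell with butyrate, because 6 of the 9 did so and 2 of those lie on either side of one short interval. The sequences are RefSeq windows on GRCh38.p14. They stop at the base before the annotated start, read 5′ to 3′ in the direction of the gene, and matches to the motifs searched are in capitals. PPAT and PAICS are transcribed away from each other, and the 136 bases between the PPAT start and the nearest of the annotated PAICS starts are shown once, in the direction of PAICS.
TYMS, chr18:657403-657652, plus strand: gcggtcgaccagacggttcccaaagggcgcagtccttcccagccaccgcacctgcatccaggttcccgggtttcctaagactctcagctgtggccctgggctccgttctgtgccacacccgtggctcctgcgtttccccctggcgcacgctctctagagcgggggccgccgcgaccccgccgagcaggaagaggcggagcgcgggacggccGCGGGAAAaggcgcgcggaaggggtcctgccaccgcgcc
RRM1, chr11:4094435-4094684, plus strand: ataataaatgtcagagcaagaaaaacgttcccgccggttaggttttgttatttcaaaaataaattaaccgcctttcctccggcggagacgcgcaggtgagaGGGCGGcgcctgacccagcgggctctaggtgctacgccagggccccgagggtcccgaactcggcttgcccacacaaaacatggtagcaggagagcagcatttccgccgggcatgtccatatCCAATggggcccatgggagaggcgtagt
CAD, chr2:27217119-27217368, plus strand: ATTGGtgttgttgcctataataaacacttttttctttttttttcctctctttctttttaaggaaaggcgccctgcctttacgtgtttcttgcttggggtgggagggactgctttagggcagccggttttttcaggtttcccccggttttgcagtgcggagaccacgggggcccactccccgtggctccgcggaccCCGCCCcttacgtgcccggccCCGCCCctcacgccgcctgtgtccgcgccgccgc
UMPS, chr3:124730202-124730451, plus strand: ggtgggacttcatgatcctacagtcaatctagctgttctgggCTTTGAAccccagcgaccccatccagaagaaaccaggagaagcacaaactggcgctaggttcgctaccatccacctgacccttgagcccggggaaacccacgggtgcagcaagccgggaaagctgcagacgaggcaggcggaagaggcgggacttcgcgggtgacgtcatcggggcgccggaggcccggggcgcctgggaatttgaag
PPAT to PAICS, chr4:56435616-56435751, plus strand: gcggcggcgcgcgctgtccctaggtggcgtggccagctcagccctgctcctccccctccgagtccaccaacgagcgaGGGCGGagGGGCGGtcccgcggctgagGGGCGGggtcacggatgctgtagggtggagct

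The capitals in the TYMS promoter are the E2F motif TTTNNCGC read on the opposite strand, which starts 39 bases before the gene's start. In RRM1 they are the NF-Y motif CCAAT, 28 bases before the start, and the SP1 motif GGGCGG, 149 bases before it. CAD held CCAAT on the opposite strand at the far end of the stretch and 2 opposite-strand GGGCGG motifs, whereas the interval between PPAT and PAICS held 3 GGGCGG motifs. UMPS held the TCF motif CTTTGAA, 208 bases before its start. In the full windows of 300 bases, 50 of which lie beyond the start, the 8 members with a window differed in their matches. They had 12 windows, and a member was counted if any of its windows held the motif, whereas the percentages are of single windows. TTTNNCGC was found in TYMS alone among the members and in 6.89% of all 35116 windows in the table, on either strand. CCAAT was found in CAD, RRM1, RRM2 and TK1 and in 34.6% of all windows. GGGCGG was found in 6 member genes, all but TYMS and UMPS, and in 45.0% of all windows. The E-box CACGTG was found in the windows of PPAT and PAICS, where it lies 40 bases beyond that PAICS start, and in 7.26% of all windows. CTTTGAA was found in UMPS and in 4.43% of all windows, and the second TCF motif, CTTTGTT, in no member and in 5.20%. Counted by gene, as the members were, TTTNNCGC was found in 2246 of 27305 genes, CCAAT in 10846 and GGGCGG in 13189. CACGTG was found in 2396 genes, CTTTGAA in 1494 and CTTTGTT in 1733. RRM2 and TK1, which did not fall on the scale used here, are not printed. A window for IMPDH2 was not used here. A match describes these letters and is neither a binding site nor a cause.

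Each level is a probe's log2 processed signal minus the log2 of its array's 75th percentile, taken over non-control spots; levels compare 1 probe between arrays and do not rank one gene against another. Between 52.5% and 88.1% of non-control spots were well above background. Negative-control signals averaged 48.4 to 115 on 22 arrays; they reached 161 in experiment 3 with NaB and 249 in experiment 2 with DoxyNaB. Experiments 2 to 6 each held the 4 treatments on a slide of their own, whereas in experiment 1 butyrate and slide cannot be told apart. The epithelial markers EPCAM, CDH1, KRT8, KRT18, KRT19 and CDX1 all had a probe well above background on all 24 arrays; in NaB/Ctl EPCAM was lower (-1.45) and CDH1, KRT8 and KRT19 were higher. Among markers of other cell types, PTPRC, CD3E, PECAM1, COL1A2 and DCN did not enter the test, whereas CD14 and COL1A1 did and were higher with butyrate, by 1.35 and 1.09 in NaB/Ctl; their part in the results below was not tested. As total cRNA was hybridised, fewer cells that make a transcript and less transcript per cell cannot be told apart. Several member levels stood apart from the rest of their group and are listed further below. The widest gap was that of 1 TYMS spot, and leaving its array out was chosen after seeing the data. TYMS read 4.42 on the DoxyNaB array of experiment 4 and 0.84 to 1.53 on the other 5 DoxyNaB arrays, so the TYMS differences that use DoxyNaB are given with and without that array or the experiment's value. The spot carried no outlier flag, its mean and median pixel intensities were 17085 and 17058.5, and the SD of its pixels was 15.9% of their mean, within the 13.5% to 22.0% of the other 23 arrays. The other 9 member probes lay within the range of the remaining DoxyNaB arrays on that array.

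**Figure D1:**
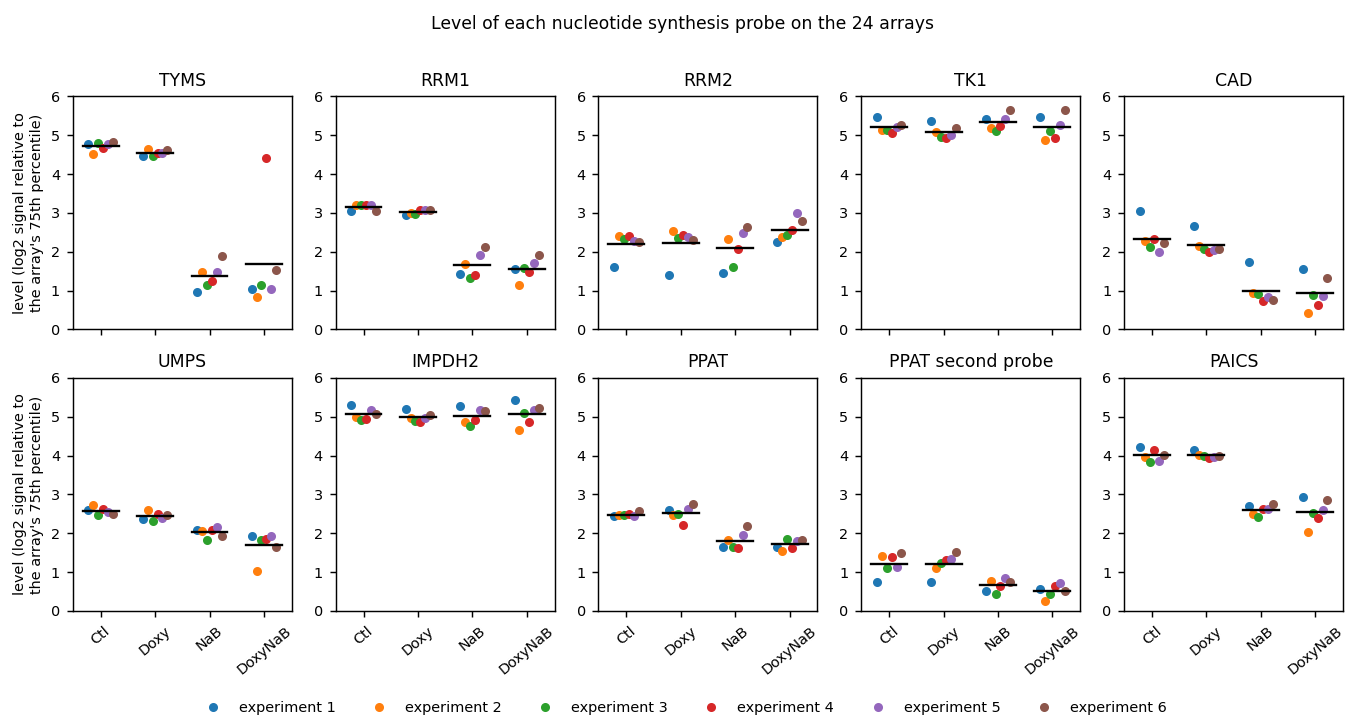
Level of each of the 10 probes (log2 signal relative to the array's 75th percentile, vertical axis) in the 4 treatments, with 1 point per array coloured by experiment and a bar at the mean of 6 arrays. Points for TYMS, RRM1, CAD and PAICS drop from the Ctl and Doxy columns to the NaB and DoxyNaB columns, except for the TYMS point of experiment 4 in DoxyNaB at 4.42, while TK1 and IMPDH2 stay between 4.65 and 5.66.

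Butyrate without doxycycline (NaB/Ctl) lowered the transcripts of 6 of the 9 genes. TYMS had the largest difference and fell by 3.36 on the log2 scale, or 10.3-fold. RRM1, PAICS and CAD fell 2.54-fold to 2.82-fold, and PPAT and UMPS 1.59-fold and 1.48-fold. RRM2, TK1 and IMPDH2 did not pass the test on this scale. In all, 7 of 10 probes were called lower and 0 higher at an adjusted p under 0.01 (limma, Benjamini-Hochberg over all probes). Over all probes tested 28.2% were called lower and 40% higher. With a fold over 2 as well, TYMS, RRM1, CAD and PAICS remained, against 11% of all probes called lower by that rule. The median difference of the 10 probes was -0.61, against 0.17 over all probes tested.

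In the pyrimidine branch, CAD, which carries out the opening steps, read 1.98, 2.25 and 3.05 in Ctl (lowest, median and highest of 6 arrays) and 0.72, 0.88 and 1.73 in NaB. Its groups did not overlap, and experiment 1 was the highest array of both. Paired by experiment, CAD fell by 1.35 ± 0.17 (SD, n = 6; adjusted p = 2.93e-09 by limma), lower in 6 of 6 experiments. UMPS, which completes UMP, read 2.48, 2.58 and 2.73 in Ctl and 1.81, 2.07 and 2.15 in NaB. These ranges did not overlap either, and the difference of -0.56 ± 0.10 (SD, n = 6; adjusted p = 0.000323 by limma) was lower in 6 of 6 experiments. The UMPS call was lost with another background correction (normexp, -0.44, adjusted p = 0.0274 by limma). It was also lost in experiments 2 to 4 alone (-0.63, adjusted p = 0.0278 by limma). In experiments 5 and 6 alone it was lost too (-0.49, adjusted p = 0.0136 by limma).

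In the purine branch, PPAT, the committing amidotransferase, read 2.43, 2.46 and 2.56 in Ctl and 1.61, 1.74 and 2.19 in NaB. The groups were separate, with a difference of -0.67 ± 0.20 (SD, n = 6; adjusted p = 2.53e-07 by limma). Its dimmer probe read 0.74, 1.26 and 1.48 in Ctl and 0.43, 0.69 and 0.85 in NaB. These groups overlapped, and the paired difference was -0.55 ± 0.23 (SD, n = 6; adjusted p = 0.000102 by limma), so both probes of PPAT moved the same way; with normexp the dimmer one lost its call (-0.38, adjusted p = 0.0181 by limma). PAICS, a bifunctional enzyme of the middle of the pathway, read 3.84, 3.99 and 4.22 in Ctl and 2.42, 2.63 and 2.76 in NaB. It fell by 1.41 ± 0.12 (SD, n = 6; adjusted p = 2.07e-10 by limma), with a wide gap between the groups. PAICS fell further than PPAT in 6 of 6 experiments, by 0.75 ± 0.11 (SD) more on the log2 scale. IMPDH2, at the entry to GMP synthesis, read 4.93, 5.03 and 5.29 in Ctl and 4.77, 5.04 and 5.29 in NaB. The ranges nearly coincide, and the difference was -0.04 (95% interval -0.18 to 0.11; adjusted p = 0.62 by limma).

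Among the enzymes that make deoxynucleotides, TYMS read 4.52, 4.77 and 4.83 in Ctl and 0.97, 1.35 and 1.88 in NaB. No NaB array came near the lowest Ctl array, and the difference was -3.36 ± 0.34 (SD, n = 6; adjusted p = 2.83e-07 by limma). That p shares its spread with the DoxyNaB arrays and was 5.44e-14 without the DoxyNaB array of experiment 4, at the same difference. The probe of ENOSF1, a gene whose annotated span overlaps that of TYMS and which was added to the comparison after results were known, was also lower (-1.32 ± 0.19, SD, n = 6; adjusted p = 2.39e-10 by limma). RRM1, the large subunit of ribonucleotide reductase, read 3.04, 3.19 and 3.21 in Ctl and 1.33, 1.56 and 2.13 in NaB. The groups were apart, and RRM1 fell by 1.49 ± 0.36 (SD, n = 6; adjusted p = 8.8e-10 by limma). RRM2, the small subunit, read 1.61, 2.30 and 2.40 in Ctl and 1.46, 2.20 and 2.64 in NaB. Experiment 1 was lowest in both groups, the ranges overlapped, and the difference of -0.11 (95% interval -0.39 to 0.16; adjusted p = 0.451 by limma) was lower in 4 of 6 experiments. Thus the 2 subunits changed unequally on the same arrays: RRM1 fell relative to RRM2 by 1.38 ± 0.13 (SD), in 6 of 6 experiments, a value that multiplying an array by a constant does not alter.

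TK1, the salvage enzyme, read 5.06, 5.17 and 5.47 in Ctl and 5.11, 5.32 and 5.65 in NaB. The groups overlapped, and the difference was 0.13 (95% interval -0.04 to 0.29; adjusted p = 0.15 by limma), higher in 4 of 6 experiments. TYMS and TK1 both lead to dTMP, and TYMS fell relative to TK1 by 3.49 ± 0.24 (SD, n = 6), in 6 of 6 experiments.

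With doxycycline in both arms (DoxyNaB/Doxy), the same 6 genes were lower. TYMS, RRM1, PAICS and CAD were again those past a fold of 2, and PPAT and UMPS fell by 0.81 and 0.74 on the log2 scale. As before, 7 of 10 probes were called lower and 0 higher, while over all probes tested 29.7% were called lower and 37.3% higher; 12.3% of all probes were lower with a fold over 2. The median of the 10 probes was -0.77, against 0.10 over all probes.

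TYMS read 4.47, 4.55 and 4.65 in Doxy and 0.84, 1.10 and 4.42 in DoxyNaB. The highest DoxyNaB array, that of experiment 4, lay just under the lowest Doxy array. With it the difference was -2.88 ± 1.37 (SD, n = 6; adjusted p = 2.13e-06 by limma), and without it -3.44 (adjusted p = 1.11e-13 by limma). RRM1 read 2.93, 3.03 and 3.07 in Doxy and 1.15, 1.57 and 1.91 in DoxyNaB, without overlap, and fell by 1.46 ± 0.24 (SD, n = 6; adjusted p = 1.27e-09 by limma). PAICS read 3.94, 3.98 and 4.14 in Doxy and 2.02, 2.56 and 2.94 in DoxyNaB. It fell by 1.45 ± 0.31 (SD, n = 6; adjusted p = 1.43e-10 by limma), again with separate groups. CAD read 1.99, 2.07 and 2.67 in Doxy and 0.42, 0.88 and 1.56 in DoxyNaB, and the difference was -1.22 ± 0.32 (SD, n = 6; adjusted p = 1.11e-08 by limma). PPAT, at 2.21, 2.55 and 2.75 in Doxy and 1.55, 1.72 and 1.86 in DoxyNaB, differed by -0.81 ± 0.16 (SD, n = 6; adjusted p = 2.04e-08 by limma), and its dimmer probe by -0.68 ± 0.28 (SD, n = 6; adjusted p = 1.02e-05 by limma).

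UMPS read 2.30, 2.43 and 2.61 in Doxy and 1.03, 1.84 and 1.93 in DoxyNaB. Its lowest value came from experiment 2, on the array with the highest negative controls. The difference was -0.74 ± 0.44 (SD, n = 6; adjusted p = 1.96e-05 by limma) with all arrays and -0.58 (adjusted p = 1.43e-07 by limma) without that array and the NaB array of experiment 3. By the methods' paired t-test after adjustment it missed the threshold (adjusted p = 0.0163), which left 6 probes called. RRM2, in contrast, read 1.40, 2.37 and 2.53 in Doxy and 2.25, 2.50 and 3.01 in DoxyNaB, with overlap. The difference of 0.33 ± 0.38 (SD, n = 6) was higher in 5 of 6 experiments and missed the threshold (adjusted p = 0.0282 by limma), but passed it without those same arrays (0.41, adjusted p = 0.00295 by limma). RRM1 fell relative to RRM2 by 1.79 ± 0.28 (SD), in 6 of 6 experiments. TK1 differed by 0.13 (95% interval -0.04 to 0.29; adjusted p = 0.155 by limma) and IMPDH2 by 0.08 (95% interval -0.07 to 0.23; adjusted p = 0.307 by limma).

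**Figure D2:**
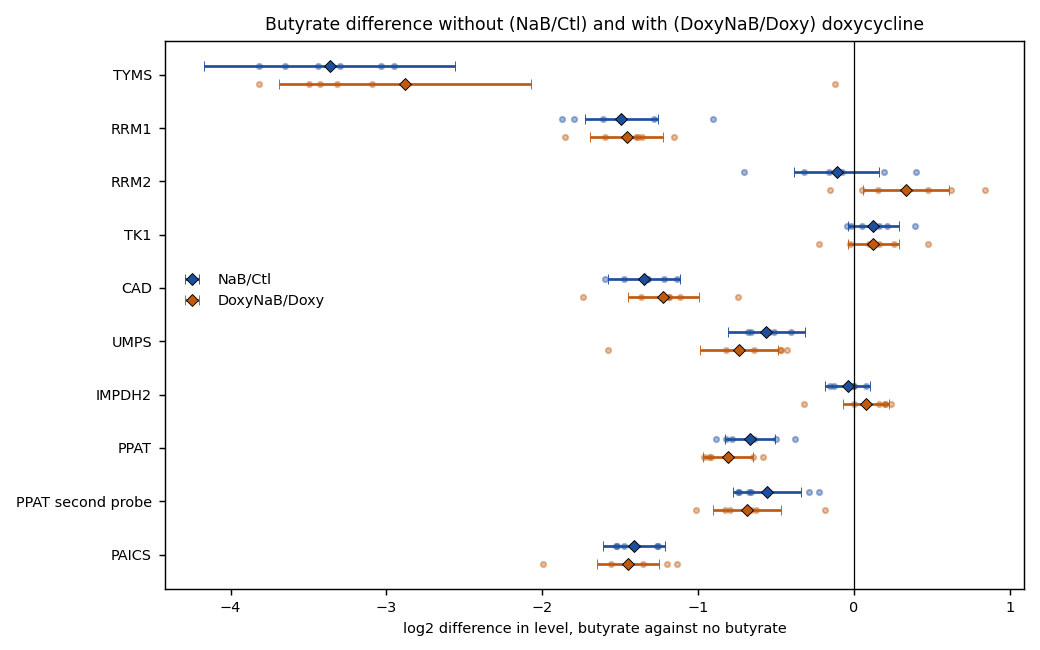
Log2 difference in level between butyrate and no butyrate (horizontal axis) for each probe, in NaB/Ctl (blue) and DoxyNaB/Doxy (orange); diamonds are the fitted differences with 95% intervals and small points the 6 experiments. The blue and orange intervals overlap for every probe, and the lone TYMS point near 0, at -0.12, is experiment 4 in DoxyNaB/Doxy.

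The sets of experiments scanned together differed in what they gave, and scan and experiment cannot be told apart between them. In experiments 2 to 4, scanned together, TYMS differed in DoxyNaB/Doxy by -2.42 on average (adjusted p = 0.015 by limma, which missed the threshold), with the outlying array among them; its 3 experiments gave -3.82, -3.32 and, in experiment 4, -0.12. In experiments 5 and 6 the mean was -3.29. RRM2 in NaB/Ctl averaged -0.37 in experiments 2 to 4 and 0.30 in experiments 5 and 6. In DoxyNaB/Doxy it averaged 0.02 and 0.55, so its sign or size differed between these sets of experiments. Experiment 1 gave -0.16 in NaB/Ctl and 0.84 in DoxyNaB/Doxy for RRM2. RRM1 in NaB/Ctl averaged -1.72 in experiments 2 to 4 and -1.09 in experiments 5 and 6. CAD averaged -1.38 and -1.31 in these sets, and PAICS -1.47 and -1.26. In experiments 5 and 6 alone the fit called 4 probes in NaB/Ctl and 8 in DoxyNaB/Doxy, adding RRM2, which was higher (0.55, adjusted p = 0.00903 by limma).

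For doxycycline without butyrate (Doxy/Ctl) 0 of the 10 probes were called by limma, with adjusted p from 0.586 to 0.993. An unadjusted p under 0.05 was reached by 0 probes with limma and by 4 with the methods' paired t-test. Over all probes 0.5% were called in either direction. Without adjustment the methods' paired t-test placed TK1 (-0.12) and UMPS (-0.14) past its threshold, each lower in 6 of 6 experiments, and none after adjustment. IMPDH2 (-0.07) was also lower in 6 of 6 experiments. Missing the threshold does not show that a probe was unchanged. Doxycycline on top of butyrate (DoxyNaB/NaB) also gave 0 calls by limma, against 2.49% of all probes in either direction, with 2 probes at an unadjusted p under 0.05 and 0 by the methods' t-test after adjustment. The lowest p belonged to RRM2, the small reductase subunit, which was 0.47 higher (95% interval 0.20 to 0.75; adjusted p = 0.0467 by limma), in 6 of 6 experiments. TYMS was 0.31 higher (95% interval -0.50 to 1.12) with the outlying array and differed by -0.25 without it.

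Whether butyrate acted differently with doxycycline was tested as an interaction, NaB/Ctl minus DoxyNaB/Doxy. It passed for 0 of 10 probes by limma, against 1.24% of all probes in either direction; 1 probe had an unadjusted p under 0.05, and 0 passed by the methods' t-test after adjustment. That probe was RRM2, at -0.44 (95% interval -0.83 to -0.05; adjusted p = 0.322 by limma). The other 9 probes had an adjusted p up to 0.999. For TYMS the estimate was -0.49 (95% interval -1.63 to 0.66) with the outlying array and 0.08 (adjusted p = 0.891 by limma) without it. NaB/Ctl and DoxyNaB/Doxy use different arrays, while each doxycycline comparison shares arrays with both. A p above the threshold does not show that the responses were equal. MYC, a Wnt target and a known driver of nucleotide synthesis genes, differed on the same arrays by -0.85 in NaB/Ctl and -2.45 in DoxyNaB/Doxy. Its interaction was 1.60 (adjusted p = 2.14e-08 by limma), and its part in the members' differences was not tested.

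**Figure D3:**
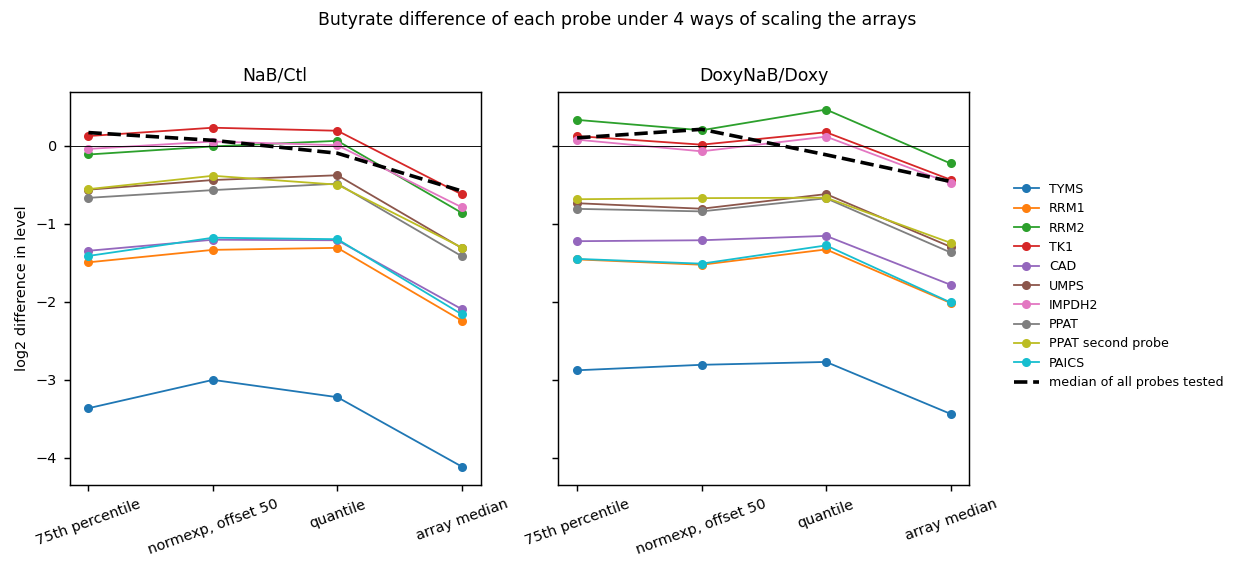
Log2 difference in level of each probe (vertical axis) in NaB/Ctl (left) and DoxyNaB/Doxy (right) under 4 ways of scaling the arrays (horizontal axis), with the median of all probes tested as a dashed line. All lines drop with the array median as the reference, where the dashed line reaches -0.58 in NaB/Ctl, and TK1, IMPDH2 and RRM2 stay close to it.

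The reference used to scale the arrays moved all values. The median of all tested probes in NaB/Ctl was 0.17 with the 75th percentile, 0.07 with normexp, -0.09 with quantile normalization and -0.58 with each array's median, and in DoxyNaB/Doxy it was 0.10, 0.21, -0.11 and -0.46. The split of calls in NaB/Ctl went from 7601 higher and 5351 lower to 4251 and 4050 with normexp, 5463 and 6198 with quantile normalization, and 2425 and 8757 with the array median. In DoxyNaB/Doxy it went from 7077 higher and 5641 lower to 5205 and 4162, 5325 and 6261, and 2647 and 7573. TYMS, RRM1, CAD, UMPS, PPAT and PAICS were lower under all 4 scalings in both comparisons. Relative to the median of all probes, TYMS in NaB/Ctl lay between -3.54 and -3.07, RRM1 between -1.66 and -1.21, PAICS between -1.58 and -1.10, CAD between -1.52 and -1.12, PPAT between -0.84 and -0.39 and UMPS between -0.73 and -0.28. RRM2 and IMPDH2 missed the threshold in NaB/Ctl under 3 scalings, whereas with the array median they were called lower in NaB/Ctl (RRM2 -0.86, adjusted p = 0.0066; IMPDH2 -0.79, adjusted p = 0.0038; limma). TK1 read -0.62 there (adjusted p = 0.0178 by limma). Relative to the median of all probes the ranges included 0, at -0.28 to 0.16 for RRM2, -0.21 to 0.10 for IMPDH2 and -0.04 to 0.29 for TK1. With quantile normalization RRM2 was called higher in DoxyNaB/Doxy (0.47, adjusted p = 0.0013 by limma).

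The rest of the pathway was read from lists of 60 further genes of nucleotide metabolism, of which 55 were tested. In NaB/Ctl 40 (72.7%) were called lower and 7 (12.7%) higher, with a median of -0.69. In DoxyNaB/Doxy 41 (74.5%) were lower and 10 (18.2%) higher, with a median of -0.80. The interaction called 0, against 1.24% of all probes tested. Over all probes tested 28.2% were called lower and 40% higher in NaB/Ctl, and 29.7% and 37.3% in DoxyNaB/Doxy. Without the arrays of high negative controls 47 and 51 genes were called in these comparisons, and without the DoxyNaB array of experiment 4 47 and 49. Over the 4 scalings the NaB/Ctl counts ran from 32 lower and 4 higher with normexp to 44 lower and 5 higher with the array median, and those in DoxyNaB/Doxy from 38 and 5 to 43 and 5. Counted with the members, all 5 pyrimidine de novo genes were lower. CTPS1, which makes CTP from UTP, differed in NaB/Ctl by -2.19 ± 0.35 (SD, n = 6) at its brighter probe and by -1.77 at the other, and DHODH, the mitochondrial step between CAD and UMPS, was -0.59 ± 0.08 (SD, n = 6). Of 13 purine genes 11 were lower, among them GART (-1.55) and ATIC (-1.27), multifunctional enzymes on either side of PAICS. IMPDH1, the paralog of IMPDH2, fell by 1.43 ± 0.16 (SD, n = 6; adjusted p = 8.04e-11 by limma) while IMPDH2 did not pass the test. ADSS1, the muscle-type adenylosuccinate synthase, was the only purine gene called higher, at 1.70.

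Of 14 deoxynucleotide genes 11 (78.6%) were lower in NaB/Ctl, against 28.2% of all probes tested. DTYMK, the thymidylate kinase after TYMS and TK1, fell by 2.04 ± 0.15 (SD, n = 6), and DUT, the dUTPase that supplies dUMP to TYMS, fell by 1.53 ± 0.18 (SD, n = 6). RRM2B, the p53-inducible alternative to RRM2, differed by 0.15 ± 0.34 (SD, n = 6; adjusted p = 0.289 by limma). GUK1 was called higher (0.63) but lay at -0.12 with the array median. Among 10 salvage genes tested 6 (60%) were lower and 0 higher, against 28.2% and 40% of all probes tested. They were led by UCK2, a uridine-cytidine kinase, at -2.10 ± 0.19 (SD, n = 6). TK2, the mitochondrial counterpart of TK1, was not tested. Of 9 folate genes 7 (77.8%) were lower. ALDH1L2, a mitochondrial folate enzyme, was higher (2.84 ± 0.73, SD, n = 6), but it was above background by the scanner's flag on only 3 of 6 Ctl arrays and did not pass with normexp (0.81).

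Of 13 genes of nucleotide breakdown tested, 6 (46.2%) were lower and 3 (23.1%) higher in NaB/Ctl. Over all probes tested the shares were 28.2% and 40%. DPYD, which degrades pyrimidines including the TYMS-directed drug 5-fluorouracil, rose by 2.48 ± 0.18 (SD, n = 6), and SAMHD1, which hydrolyses deoxynucleotides, by 1.57 ± 0.20 (SD, n = 6), and their signs were positive under all 4 scalings. Only 5 of 6 Ctl arrays held DPYD well above background, so its value is set against a level near the background. TYMP, thymidine phosphorylase, differed by -0.23 ± 0.26 (SD, n = 6; adjusted p = 0.0277 by limma). Genes of DNA replication and the cell cycle moved in the same direction as the members called. In NaB/Ctl 17 of 18 were lower (94.4%, median -1.54), against 28.2% of all probes tested. In DoxyNaB/Doxy 18 of 18 were lower (median -1.47), against 29.7% of all probes tested. With normexp 17 were called lower there, and CDC6 read 0.09 (adjusted p = 0.728 by limma). E2F1, a transcription factor of the G1/S transition, differed by -1.27 ± 0.43 (SD, n = 6). MKI67, a marker of cycling cells, differed by -1.90 ± 0.26 (SD, n = 6) at its brightest probe, while its other 2 tested probes read -0.93 and 0.03. The part of fewer cycling cells in the members' differences was not tested.

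**Figure D4:**
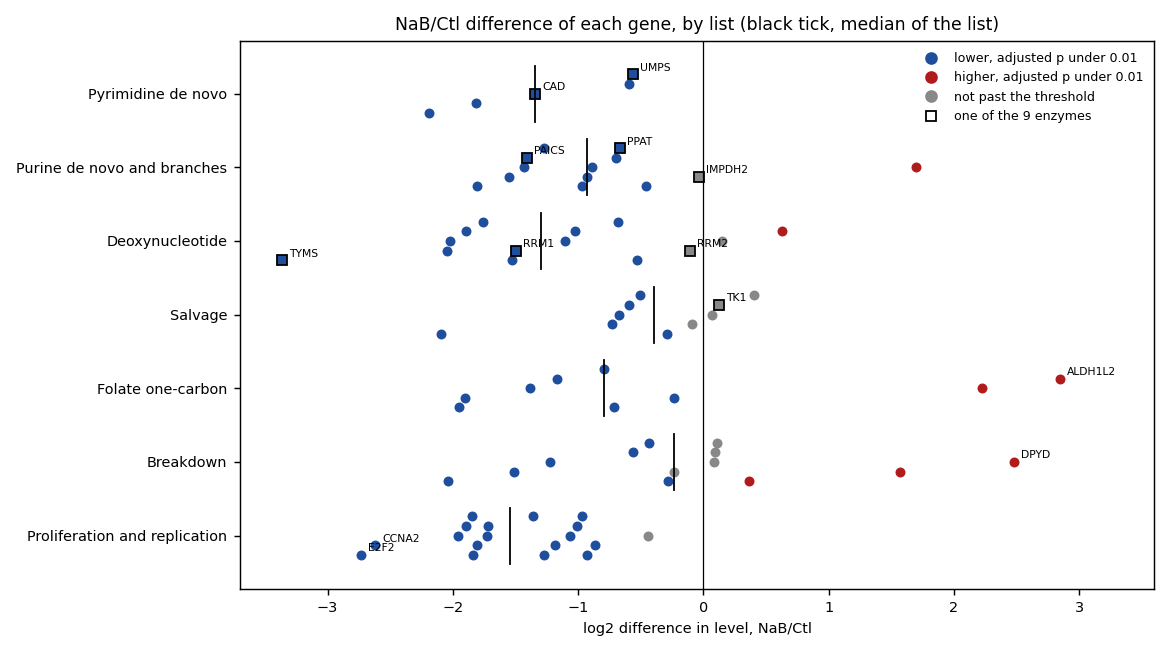
Log2 difference in level in NaB/Ctl (horizontal axis) for each tested gene of 7 lists, with squares for the 9 enzymes, blue for genes called lower, red for genes called higher, grey for those not past an adjusted p of 0.01 and a black tick at each list's median. Blue points dominate the synthesis lists, TYMS at -3.36 is the lowest point of all, and DPYD and ALDH1L2 stand farthest to the right.

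The members' patterns over the 24 arrays, centred on each experiment, were compared as a description. The points share the 4 treatments, so genes that respond to butyrate correlate for that reason. RRM1 and PAICS had r = 0.99, CAD and PAICS 0.98 and PPAT and PAICS 0.97, whereas RRM1 and RRM2 had -0.13. After the treatment means were also removed, r was 0.69 for RRM1 and PAICS, 0.36 for PPAT and PAICS and 0.80 for RRM1 and RRM2. The tested gene most like PAICS was CSE1L (r = 0.997), followed by MCM3 (0.995), a subunit of the replicative helicase. RRM1 reached 0.995 with EBPL. CAD was closest to EARS2 (0.993) and SUPT16H (0.990), UMPS to RRP15 (0.989) and LZIC (0.970), and PPAT to DUSP12 (0.985) and PNPT1 (0.985). TYMS, with its outlying array, reached 0.951 with SCAF11 and with TSPAN1. The members not called were less like any other gene, with RRM2 closest to COX11 (0.867) and UQCRC2 (0.828), TK1 to DCTN2 (0.898) and ALDOA (0.888), and IMPDH2 to RPS20 (0.913) and FKBP1A (0.891). The dimmer PPAT probe was most like EPS8 (0.979) and EIF1AX (0.978).

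On NCBI36, the build of the array files, the probes lie at chr18:663276-663335 (TYMS), chr11:4116523-4116582 (RRM1), chr2:10187938-10187997 (RRM2), chr17:73681788-73681847 (TK1), chr2:27319274-27319333 (CAD), chr3:125945600-125945659 (UMPS), chr3:49037133-49037192 (IMPDH2), chr4:56954740-56954799 and chr4:56956266-56956325 (PPAT) and chr4:57021992-57022051 (PAICS). TK1, IMPDH2 and PPAT are on the minus strand and the others on the plus strand. Exon and UTR positions on that build were not analysed here.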

How the data were processed

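RNA of HCT-116 cells was hybridised in 1 colour to 24 Agilent arrays, 4 treatments in 6 experiments. The deposited intensity values are those of the authors' Agilent Feature Extraction software, which subtracted background and spatial trend within an array and did not scale arrays to each other; mean spot and local background intensity were also deposited. Control and outlier-flagged spots were left out, spots of a probe averaged, and the log2 signal set relative to the array's 75th percentile (380 to 1323 signal units). A probe was tested where some treatment had it well above background on each of its 6 arrays (18984 probes), in R 4.3.3 with limma 3.58.1, treatment plus experiment as a block, Benjamini-Hochberg over all probes, threshold 0.01. The named genes are the members, the 3 largest rises and falls among other listed nucleotide genes, fixed pathway neighbours, the 2 most similar genes per member, and MYC, E2F1 and MKI67. Members and lists were chosen with earlier results of these data known. Pairing follows the methods' paired test and the shared slides: treatment-centred levels correlated within an experiment with r of 0.219 or more, except -0.224 between the NaB and DoxyNaB arrays of experiment 3. Sequence windows and gene names are from RefSeq. The number of arrays limits precision. Alternatives were other background corrections, scalings, filters, blocks, tests and subsets of arrays; the fit was tested on simulated data. Tables and plots were made in Python 3.11.15 with pandas 2.3.3 and matplotlib 3.10.9. Reporter assays and blots were not used here, and some genes that the rule or the lists name are not reported here.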

Additional observations from a re-analysis of the deposited data

Results flagged for a closer look

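Of 80 groups of 6 values (levels of a probe within a treatment, and differences of a probe within a comparison), 13 held a value far from the other 5, where chance flags about 1 in 20 groups, and several of the 13 come from the same array. The TYMS level of 4.42 on the DoxyNaB array of experiment 4 stood apart from the next at 1.53, and with it the TYMS differences of -0.12 in DoxyNaB/Doxy and 3.19 in DoxyNaB/NaB in that experiment. UMPS was low on the DoxyNaB array of experiment 2 (1.03, next 1.65), which has the highest negative controls, and so were its differences there (-1.57 in DoxyNaB/Doxy and -1.02 in DoxyNaB/NaB). The other flagged levels are all from experiment 1: RRM2 in Ctl (1.61) and Doxy (1.40), CAD in Ctl (3.05), Doxy (2.67) and NaB (1.73) and PAICS in Doxy (4.14), together with the RRM2 difference of -0.21 in Doxy/Ctl. No member passed the test for a different butyrate response with and without doxycycline.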

How the results depend on the processing

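Over 10 probes, 5 comparisons and all alternatives, 957 of 1045 recomputed values kept their sign and their side of the threshold, 8 fell below it, 9 passed it and 71 changed sign, each of the 71 being uncalled both times. The count in NaB/Ctl was 7 with all arrays and 4 in experiments 5 and 6 only. In Doxy/Ctl it was 0, and 2 by the unadjusted p of the methods' t-test; in DoxyNaB/NaB it was 0, and 1 at an adjusted p under 0.05. Without the replicate block, which treats the arrays as unpaired, 7 probes were called in each butyrate comparison, and the block changed no other count of calls. Changes of sign were RRM2 in NaB/Ctl with quantile normalization (0.065), in experiments 5 and 6 (0.30) and when each experiment was left out in turn (from -0.21 to 0.0088), and in DoxyNaB/Doxy with the array median (-0.23). TK1 changed sign with the array median (-0.62 in NaB/Ctl, -0.43 in DoxyNaB/Doxy) and in experiments 2 to 4 of DoxyNaB/Doxy (-0.028). IMPDH2 in NaB/Ctl was 0.056 with normexp, 0.0082 with quantile normalization and 0.042 in experiments 5 and 6, and in DoxyNaB/Doxy -0.070 with normexp, -0.48 with the array median and -0.040 in experiments 2 to 4. TYMS in DoxyNaB/NaB was -0.38 in experiments 5 and 6 and -0.25 without the DoxyNaB array of experiment 4 (an alternative chosen after seeing the data), and its interaction was 0.17 and 0.076; leaving out each experiment in turn gave -0.27 to 0.50 in DoxyNaB/NaB and -0.74 to 0.079 for the interaction, the negative and the positive end being without experiment 4. Beyond the array median, which shifts all probes, and that array, the cause was not tested. Signal over background limits genes near the floor, such as ALDH1L2.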
